A study of Mus musculus with 6 samples.

Results

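The genes described here encode the synaptic SNARE fusion machinery, the proteins that join a synaptic vesicle to the presynaptic membrane and release transmitter. The 8 members were taken by name, whatever their values: Snap25, Stx1a, Vamp1, Vamp2, Syt1, Syt2, Cplx1 and Cplx2. All 8 were found among the 21006 genes with a value in the prefrontal cortex, each as 1 Ensembl gene, and all 8 passed the filter on low values.

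Transmitter release starts when vesicle SNARE proteins (synaptobrevins, encoded by Vamp genes) wind together with SNARE proteins of the plasma membrane (syntaxin and SNAP-25) into a helical bundle that draws both membranes together. Synaptotagmins on the vesicle sense the calcium that enters with an action potential and trigger fusion, and complexins bind the partly assembled bundle, holding it ready and helping the trigger. Presynaptic proteins of this group are among the known targets of volatile anesthetics such as isoflurane, and fast-spiking interneurons of the cortex are known for using Vamp1 and Syt2 beside the more common Vamp2 and Syt1.

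The study asked how anesthesia and an abdominal operation change gene expression in the prefrontal cortex of aged mice. All 6 libraries came from wild type male C57BL/6 mice, labelled as 18 months old, although the sample titles carry another month number. The 3 mice of the postoperative neurocognitive disorder (PND) group were anesthetized with isoflurane, underwent an exploratory laparotomy under isoflurane and had lidocaine cream and povidone iodine put on the wound, while the 3 mice of the control (CON) group had neither anesthesia nor operation. Anesthesia, operation and wound care therefore came together and cannot be told apart. By the study's methods both groups went through the same behavioral tests and both were put under deep isoflurane anesthesia before perfusion, so the CON brains were not free of the drug at collection. Levels are FPKM (fragments per kilobase of exon, scaled to the mapped fragments of the library). This scaling allows for exon length and depth but not for base composition, whose trend differed between the libraries, as given below. The RNA was from whole pieces of tissue, and fewer cells of a type and less RNA per cell cannot be told apart in such samples.

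The FPKM steps of low genes placed the depth at 7199165 to 9402401 fragments per library. The 8 neuronal markers Rbfox3, Map2, Tubb3, Elavl3, Elavl4, Nefl, Nefm and Eno2 were above 0 in all 6 samples, with a summed level of 320 to 336 FPKM in the PND group and 279 to 352 FPKM in the CON group. The 6 markers of cortical glutamatergic neurons were also present in every sample (sum 198 to 240 FPKM in PND, 188 to 309 FPKM in CON), and markers of the striatum were present too, at 35.5 to 47.0 and 28.8 to 55.8 FPKM. For 11 of 12 marker lists the summed levels of the groups overlapped. The choroid plexus list did not overlap (2.20 to 2.82 FPKM in PND, 1.16 to 1.99 FPKM in CON), with 2 of its 4 genes above 0 in all samples and the defining genes Ttr and Folr1 at or near 0, and its part in the results below was not tested.

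Paralogs of this machinery are similar in sequence, so the stretches of 90 coding bases most alike in each pair are shown. They let a reader see how far sequenced fragments can tell the genes apart. Each was chosen as the in-frame window within an exon with the most identical bases, so its identity is the highest of the pair, not the typical one. In each line the bases that differ from the paralog are in capitals (GRCm38, coding strand, 5′ to 3′). The Vamp1 stretch lies in exon 3 of 5 at chr6:125218911-125219000 on the plus strand and the Vamp2 stretch in exon 3 of 4 at chr11:69089731-69089820 on the plus strand. The Syt2 stretch lies in exon 8 of 9 at chr1:134746771-134746860 on the plus strand and the Syt1 stretch in exon 10 of 11 at chr10:108504424-108504513 on the minus strand. The Cplx1 stretch lies in exon 3 of 4 at chr5:108525478-108525567 on the minus strand and the Cplx2 stretch in exon 3 of 4 at chr13:54378812-54378901 on the plus strand.
Vamp1: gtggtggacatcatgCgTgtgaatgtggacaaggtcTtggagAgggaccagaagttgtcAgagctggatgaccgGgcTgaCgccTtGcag
Vamp2: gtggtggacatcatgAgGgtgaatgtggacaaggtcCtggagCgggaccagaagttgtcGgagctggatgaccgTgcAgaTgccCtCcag
Syt2: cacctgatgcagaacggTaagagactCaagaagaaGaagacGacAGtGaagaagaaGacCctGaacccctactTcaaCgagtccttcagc
Syt1: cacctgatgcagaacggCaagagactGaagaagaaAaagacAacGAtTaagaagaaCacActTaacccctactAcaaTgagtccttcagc
Cplx1: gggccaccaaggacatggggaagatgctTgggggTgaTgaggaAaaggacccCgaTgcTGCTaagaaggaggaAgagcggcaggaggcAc
Cplx2: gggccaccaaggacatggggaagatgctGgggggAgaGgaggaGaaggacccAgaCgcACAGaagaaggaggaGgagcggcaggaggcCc
The Vamp stretches shared 88.9% of bases, with 10 differences, and those of the Syt and Cplx pairs shared 86.7%, with 12 differences each. Over all annotated transcripts, the longest run of bases shared without a difference was 18 for Vamp1 and Vamp2, 26 for Syt1 and Syt2, and 32 for Cplx1 and Cplx2. All 8 members are protein-coding, and none has exons that overlap another annotated gene.

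No member differed between the PND and CON groups beyond the spread between mice. Of the 8 members, 0 had an unadjusted p below 0.05 in the limma fit over all genes, where 3.13% of 18185 genes did (1.73% higher and 1.4% lower in PND), and 0 passed the study's cut-off (absolute log2 fold change above 1 with an unadjusted p below 0.05), which 1.33% of all genes passed. Unadjusted p ran from 0.246 for Vamp2 to 0.699 for Snap25, and the Benjamini-Hochberg adjusted p from limma was 0.9999 for each, where 0.011% of all genes had an adjusted p below 0.05. For 0 of 8 members did the 3 PND values lie outside the range of the 3 CON values, against 7.66% of all genes (3.78% higher and 3.88% lower in PND). The mean was higher in the PND group for 5 members (Vamp1, Vamp2, Syt2, Cplx1 and Cplx2) and lower for 3 (Snap25, Stx1a and Syt1), with a median log2 fold change of 0.13 beside 0.01 over all genes tested. With 3 mice a group these intervals are wide: an exact permutation test of a single gene cannot give a p below 0.1, and the 95% interval of the log2 fold change stayed within 1 in either direction for 7 members, and for Syt2 it reached 1.37.

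**Figure D1:**
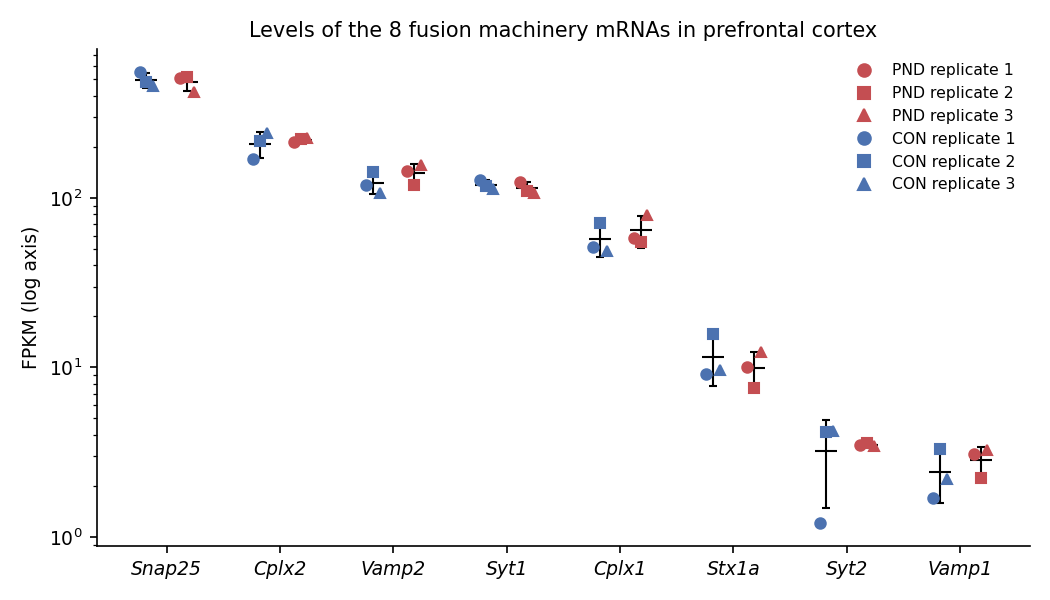
Level of each of the 8 members (FPKM, log axis) in the 3 PND and 3 CON mice, 1 point per mouse, with long ticks for the group means and bars for 1 SD. The points of the groups overlap for every member, and the mean levels span from 2.62 FPKM for Vamp1 to 490.3 FPKM for Snap25.

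Snap25 encodes SNAP-25, the plasma membrane SNARE that gives 2 of the helices of the bundle (chr2:136713453-136782428, plus strand, GRCm38). It measured 511, 515 and 419 FPKM in the PND mice and 555, 484 and 457 FPKM in the CON mice. The lowest value was a PND mouse and the highest a CON mouse, and among the others both PND values lay above both CON values. The means were 482 ± 54.3 and 499 ± 50.4 FPKM (SD, n = 3 each), a log2 fold change of -0.05 (SE 0.13, 95% interval -0.35 to 0.25, limma p = 0.699, exact permutation p = 0.7), which as a ratio of PND to CON is 0.965 with bounds of 0.786 and 1.19. Leaving out PND replicate 3 gave a log2 fold change of 0.05, and leaving out CON replicate 1 gave 0.03. By its mean over the 6 mice Snap25 ranked 7 among all genes outside the mitochondrial genome.

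Stx1a encodes syntaxin-1A, a syntaxin of the plasma membrane (chr5:135023482-135051100, plus strand). It measured 10.04, 7.58 and 12.3 FPKM in the PND mice and 9.17, 15.8 and 9.61 FPKM in the CON mice. The highest value was CON replicate 2 and the lowest PND replicate 2, and among the other four both CON values lay below both PND values. The means were 9.98 ± 2.36 and 11.5 ± 3.73 FPKM, with a log2 fold change of -0.19 (SE 0.26, interval -0.80 to 0.42, limma p = 0.486, exact permutation p = 0.7). Leaving out CON replicate 2 turned it to 0.06, and leaving out PND replicate 2 brought it to -0.01.

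Vamp2 encodes synaptobrevin-2, the main vesicle SNARE of forebrain synapses (chr11:69088490-69092384, plus strand). It measured 144, 119 and 156 FPKM in the PND mice and 119, 143 and 107 FPKM in the CON mice. PND replicates 1 and 3 were the highest of all, and PND replicate 2 lay at the level of CON replicate 1. The means were 139.7 ± 18.7 and 123 ± 18.0 FPKM, with a log2 fold change of 0.19 (SE 0.15, interval -0.16 to 0.53, limma p = 0.246, exact permutation p = 0.2), the smallest limma p among the members.

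Vamp1 encodes synaptobrevin-1, the vesicle SNARE best known from spinal cord, brainstem and fast-spiking neurons (chr6:125215551-125245964, plus strand). Its level was 3.09, 2.23 and 3.24 FPKM in the PND mice and 1.70, 3.30 and 2.21 FPKM in the CON mice. CON replicate 2 was the highest and CON replicate 1 the lowest, so the CON range enclosed every PND value. The means were 2.85 ± 0.548 and 2.40 ± 0.815 FPKM, with a log2 fold change of 0.27 (SE 0.28, interval -0.38 to 0.92, limma p = 0.364, exact permutation p = 0.6). Without CON replicate 1 the log2 fold change was 0.06, and without CON replicate 2 it was 0.51. From its steps, Vamp1 rested on about 130 to 310 fragments per library.

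Syt1 encodes synaptotagmin-1, the calcium sensor of fast release in most forebrain neurons (chr10:108497650-109010982, minus strand). It measured 125, 110 and 107 FPKM in the PND mice and 128, 118 and 113 FPKM in the CON mice. These 6 values lay close together, with a coefficient of variation of 6.91%, and the groups overlapped. The means were 114 ± 9.24 and 119.5 ± 7.45 FPKM, with a log2 fold change of -0.07 (SE 0.10, interval -0.31 to 0.17, limma p = 0.526, exact permutation p = 0.5). Of the 8 members, Syt1 had the narrowest interval.

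Syt2 encodes synaptotagmin-2, a fast calcium sensor of brainstem and of parvalbumin interneurons (chr1:134646677-134762593, plus strand). It measured 3.49, 3.60 and 3.43 FPKM in the PND mice and 1.21, 4.14 and 4.23 FPKM in the CON mice. The 3 PND mice were nearly equal, CON replicates 2 and 3 lay above them, and CON replicate 1 stood far below all others. That library held about 69.0 fragments of Syt2, against 217 to 257 in the others. The means were 3.50 ± 0.0846 and 3.19 ± 1.72 FPKM, with a log2 fold change of 0.32 (SE 0.45, interval -0.72 to 1.37, limma p = 0.493, exact permutation p = 1). Without CON replicate 1 the log2 fold change was -0.25, so 1 library set the sign of this value.

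Cplx2 encodes complexin-2, the main complexin of excitatory cortical neurons (chr13:54371349-54383917, plus strand). It measured 213, 221 and 225 FPKM in the PND mice and 169, 215 and 242 FPKM in the CON mice. As for Syt2, the PND mice were close together and CON replicate 1 was the lowest. The means were 219 ± 6.24 and 209 ± 36.8 FPKM, with a log2 fold change of 0.09 (SE 0.14, interval -0.24 to 0.42, limma p = 0.548, exact permutation p = 0.8), and -0.06 without CON replicate 1.

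Cplx1 encodes complexin-1, the complexin more typical of inhibitory neurons in the cortex (chr5:108518554-108550024, minus strand). It measured 57.9, 54.99 and 79.8 FPKM in the PND mice and 51.4, 71.3 and 48.9 FPKM in the CON mice. The highest values were PND replicate 3 and CON replicate 2, 1 mouse from each group. The means were 64.3 ± 13.6 and 57.2 ± 12.3 FPKM, with a log2 fold change of 0.17 (SE 0.20, interval -0.29 to 0.62, limma p = 0.417, exact permutation p = 0.5). Leaving out PND replicate 3 brought the log2 fold change to 0.0011, and leaving out CON replicate 2 raised it to 0.34.

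**Figure D2:**
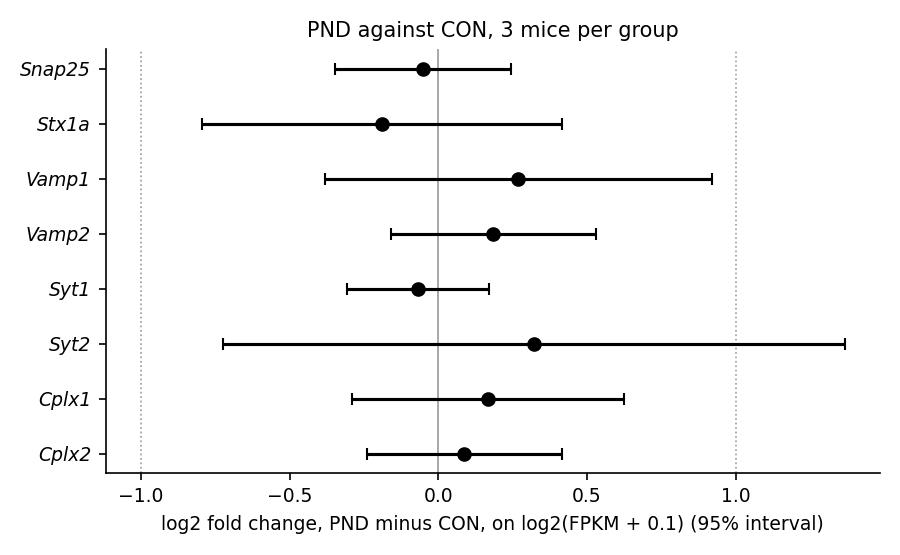
Log2 fold change (PND minus CON) of each member with its 95% interval from limma, and dotted lines at 1 and -1. All 8 intervals cross 0, and that of Syt2 is the widest.

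The levels of the members differed far more between genes than between groups. In FPKM, and so per exon length, the order of the means over 6 mice was Snap25, Cplx2, Vamp2, Syt1, Cplx1, Stx1a, Syt2 and Vamp1, and the highest mean was 187 times the lowest. Snap25 was 2.29 times Cplx2 in the ratio of the means and higher in 6 of 6 mice. Cplx2 was 1.63 times Vamp2, again in 6 of 6 mice. Vamp2 and Syt1 did not separate: their means differed 1.12 times, their ranges overlapped, and Vamp2 was higher in 4 of 6 mice. Below them Syt1 was 1.92 times Cplx1, Cplx1 5.64 times Stx1a and Stx1a 3.21 times Syt2, each in 6 of 6 mice without overlap. Syt2 and Vamp1, the least abundant members, differed 1.27 times with overlapping ranges, and Syt2 was the higher in 5 of 6 mice. Among all genes outside the mitochondrial genome, Cplx2 ranked 28, Vamp2 63, Syt1 83, Cplx1 312 and Stx1a 3247.

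Within each pair of paralogs 1 gene was far more abundant, and the balance between them was not found to differ between the groups. The mean level of Vamp2 was 50.0 times that of Vamp1, that of Syt1 34.9 times that of Syt2, and that of Cplx2 3.52 times that of Cplx1. Vamp1 made up 2.10%, 1.83% and 2.04% of the summed Vamp level in the PND mice and 1.41%, 2.26% and 2.02% in the CON mice. Syt2 made up 2.72%, 3.16% and 3.09% of the summed Syt1 and Syt2 level in PND and 0.935%, 3.40% and 3.60% in CON. For both pairs CON replicate 1 had the lowest share of the minor paralog. Cplx1 made up 21.4%, 19.9% and 26.2% of the complexin level in PND and 23.3%, 24.9% and 16.8% in CON, where CON replicate 3 was the lowest. The log2 ratio of the minor to the major paralog was higher in PND by 0.08 for Vamp1 to Vamp2 (two-sided exact permutation p = 0.9), by 0.39 for Syt2 to Syt1 (exact permutation p = 1) and by 0.08 for Cplx1 to Cplx2 (exact permutation p = 0.8). Adjusted over the 3 ratios each p was 1. Each sign turned when 1 particular library was left out: without CON replicate 1 the difference was -0.11 for Vamp1 to Vamp2 and -0.23 for Syt2 to Syt1, and for Cplx1 to Cplx2 it was -0.14 without CON replicate 3 and -0.07 without PND replicate 3. With 20 arrangements of 3 against 3 mice no p below 0.1 was possible.

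**Figure D3:**
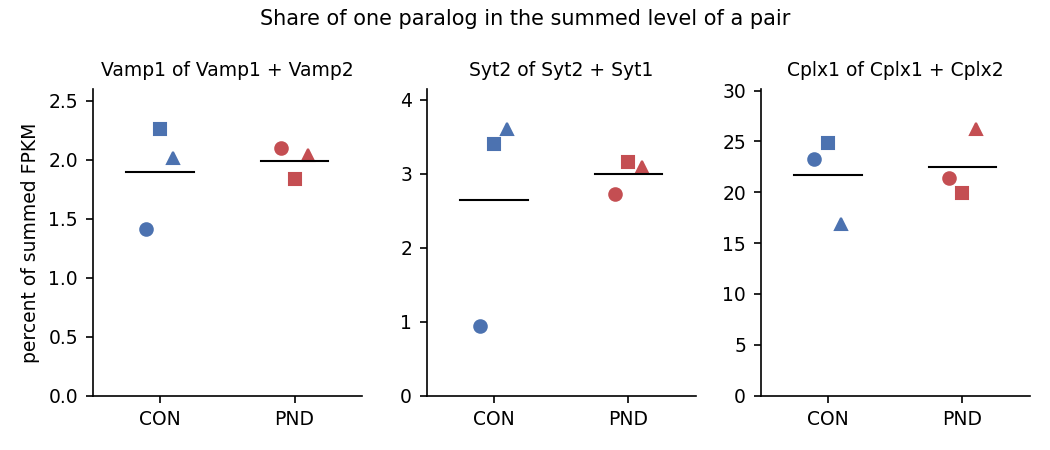
Share (percent) of the minor paralog in the summed FPKM of its pair, 1 point per mouse with a line at the group mean, for Vamp1, Syt2 and Cplx1 in the PND and CON groups. The Vamp1 shares lie between 1.41% and 2.26%, the Syt2 shares between 0.935% and 3.60% and the Cplx1 shares between 16.8% and 26.2%, and the groups overlap in all 3.

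The members did not vary together as 1 unit across the 6 mice. Of the 28 pairs of members 16 had a positive Pearson r of log2 level, and r ran from -0.75 to 0.95. An unadjusted exact permutation p below 0.05 for Pearson's r was found for 4 pairs, and 0 of the 44 relations computed (28 pairs, 8 with Pvalb and 8 with GC content) passed after adjustment. The pair with the smallest p was Vamp2 with Cplx1, with r = 0.90 (exact permutation p = 0.00972, adjusted p = 0.143) and rho = 0.94 (exact permutation p = 0.0167), and r was 0.75 without the 2 mice farthest from the median of Vamp2. Vamp1 with Cplx1 gave r = 0.81 (exact permutation p = 0.0486) and rho = 0.89 (exact permutation p = 0.0333), with adjusted p of 0.258 and 0.244, and r = 0.81 without the 2 farthest mice. Syt2 and Cplx2 had the highest r, 0.95 (exact permutation p = 0.0389, adjusted p = 0.258), but rho was 0.60 (exact permutation p = 0.242) and r fell to -0.38 without the 2 farthest mice. That relation rests on those mice, with CON replicate 1 low for both genes. The other pair, Syt1 with Cplx2, was negative, with r = -0.75 (exact permutation p = 0.0431, adjusted p = 0.258), rho = -0.83 (exact permutation p = 0.0583) and r = -0.18 without the 2 farthest mice.

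Part of this shared variation moved with the base composition of the libraries. In each library the deviation of a gene from its mean over the 6 mice was related to the GC content of its transcript, and the slope, in log2 units per 10 points of GC over 12323 genes, was 0.06, -0.19 and 0.25 in the PND mice and -0.38, 0.30 and -0.04 in the CON mice. PND replicate 3 and CON replicate 2 therefore read GC-rich genes high, and CON replicate 1 read them low. The GC content of the members' longest transcripts ran from 38.7% for Snap25 to 57.9% for Stx1a, with Cplx1 at 56.0%, Cplx2 at 53.7%, Vamp2 at 53.2%, Syt2 at 51.6%, Vamp1 at 47.0% and Syt1 at 45.8%. The slope had r = 0.83 with Stx1a (exact permutation p = 0.0403, adjusted p = 0.258; rho = 0.94, exact permutation p = 0.0167), 0.82 with Cplx1, 0.73 with Vamp2 and -0.74 with Snap25. For Stx1a r was 0.99 without the 2 farthest mice. After the trend on GC content was taken out of each library, the SD of the log2 level over the 6 mice fell from 0.37 to 0.20 for Stx1a, from 0.28 to 0.18 for Cplx1, from 0.21 to 0.14 for Vamp2, from 0.14 to 0.09 for Snap25, from 0.10 to 0.07 for Syt1 and from 0.65 to 0.58 for Syt2, beside medians of 0.24 and 0.21 over all genes averaging 1 FPKM or more. It did not fall for Cplx2 (0.18 before and after), although its GC content is above that of Vamp2. Of the 4 member pairs with an unadjusted p below 0.05, only Vamp2 with Cplx1 was still below it (r = 0.79, exact permutation p = 0.0403, adjusted p = 0.591), and its r was 0.29 without the 2 farthest mice. In the limma fit on the corrected values the log2 fold change of Stx1a was -0.28, and its unadjusted p of 0.0509 was the smallest of any member under any of the 16 alternatives. The GC trend was not tested as a cause of the values as deposited.

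**Figure D4:**
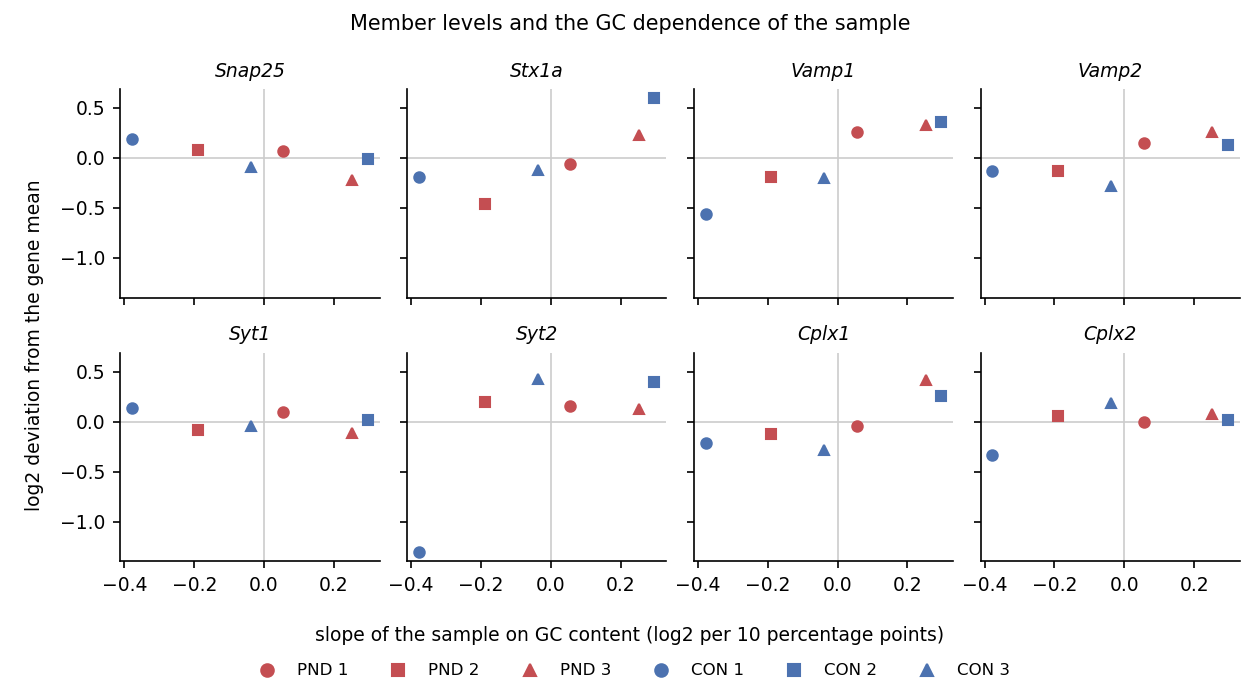
Deviation of each member from its mean over the 6 mice (log2, vertical) against the slope of the sample on GC content (log2 per 10 percentage points, horizontal), 1 panel per member and 1 point per mouse. Stx1a, Vamp1, Vamp2 and Cplx1 lie higher in the samples of higher slope (r of 0.73 to 0.95), Snap25 lies lower (r of -0.74), and Syt2 and Cplx2 are set apart by CON replicate 1.

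Vamp1 kept its spread after this correction, with an SD of 0.37 before and after. Its level moved with that of Pvalb, the gene of parvalbumin, which marks fast-spiking interneurons. Pvalb measured 6.97, 4.72 and 7.07 FPKM in the PND mice and 2.21, 10.3 and 6.35 FPKM in the CON mice, so CON replicate 1 was the lowest and CON replicate 2 the highest, as for Vamp1. The r was 0.90 (exact permutation p = 0.00417, adjusted p = 0.0917) and rho 0.94 (exact permutation p = 0.0167), with r = 0.76 without the 2 farthest mice and 0.89 on the corrected values. Vamp1 was as close to the GC slope itself (r = 0.95, exact permutation p = 0.00417, adjusted p = 0.0917; rho = 0.94, exact permutation p = 0.0167; r = 0.87 without the 2 farthest mice), and r stayed at 0.96 after the correction, so in 6 mice Pvalb and the slope cannot be told apart as companions of Vamp1. Syt2 also had r = 0.90 with Pvalb (exact permutation p = 0.05), but rho was 0.31 and r was -0.11 without the 2 farthest mice, so that value rests on those mice. This order of the mice was not particular to a fast-spiking marker. Slc17a7, the vesicular glutamate transporter gene of cortical excitatory neurons, measured 41.7, 27.7 and 58.1 FPKM in PND and 23.6, 73.8 and 36.9 FPKM in CON, which ranks the 6 mice exactly as Pvalb does, and Mbp, Mag and Eno2 were also lowest in CON replicate 1 and highest in CON replicate 2. The relation with Pvalb as deposited was also not particular to Vamp1 by rank: Stx1a also had rho = 0.94 (exact permutation p = 0.0167, adjusted p = 0.147), with r = 0.67 (exact permutation p = 0.153) and r = 0.91 without the 2 farthest mice. On the corrected values Stx1a had r = -0.42 (exact permutation p = 0.439) and rho = -0.03 with Pvalb. The GC slope ranks the 6 mice exactly as Pvalb does, so each rho with Pvalb as deposited equals that with the slope.

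Promoters are shown for Vamp1 and Cplx1, which moved together as deposited (r = 0.81) but not after the GC correction (r = -0.28), to let a reader compare their base composition. Each is the 250 bases before the annotated start (RefSeq, GRCm38.p6, 5′ to 3′ on the strand of the gene). Capitals mark a GC box, searched as GGGCGG or its reverse CCGCCC. The Vamp1 window is chr6:125215331-125215580 on the plus strand and the Cplx1 window is chr5:108550028-108550277 on the minus strand.
Vamp1: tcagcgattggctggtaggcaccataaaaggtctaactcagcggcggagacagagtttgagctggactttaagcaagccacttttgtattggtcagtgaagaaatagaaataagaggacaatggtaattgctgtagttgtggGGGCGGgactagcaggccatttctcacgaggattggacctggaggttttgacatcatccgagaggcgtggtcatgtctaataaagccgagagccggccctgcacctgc
Cplx1: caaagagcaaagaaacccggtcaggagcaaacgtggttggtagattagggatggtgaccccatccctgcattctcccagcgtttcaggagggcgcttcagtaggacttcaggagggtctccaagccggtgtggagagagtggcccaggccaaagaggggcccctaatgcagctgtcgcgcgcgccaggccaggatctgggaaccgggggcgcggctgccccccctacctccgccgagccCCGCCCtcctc
Each of these windows holds 1 GC box, which 32.7% of 32851 RefSeq promoter windows of the same length hold. The windows differ in composition, at 50.4% GC for Vamp1 and 64.8% for Cplx1, where the median over all windows was 52.4%. In all, 8 windows of 6 members were matched, and their GC content ran from 42.8% for a Syt1 window to 76% for a Syt2 window, the latter with 3 GC boxes. Snap25 and Vamp2 were not matched. Neither TATAAA nor its reverse TTTATA, found in 12.4% of all windows, nor the palindrome TGACGTCA, found in 1.55%, occurs in any of the 8 windows.

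The genes whose pattern over the 6 mice was most like each member were read off by Pearson r of log2 level among 12315 genes averaging 1 FPKM or more. They were Eif4g2 and Ppp1r14c for Snap25, Pcid2 and Ranbp3 for Stx1a, Disp2 and Pgam1 for Vamp1, and Camsap1 and Gsk3a for Vamp2. For the others they were Ibtk and Gm43362 for Syt1, Rnf182 and Pcdhgc5 for Syt2, Irf2bp1 and Fjx1 for Cplx1, and Jarid2 and Acaa1a for Cplx2. These r lay between 0.987 and 0.999, but with 6 points high values are common: 390 genes passed an r of 0.95 with Vamp1 and 14 did so with Syt1.

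The wider release machinery was followed through 75 genes in 4 lists, and among them 1 had an unadjusted p below 0.05 and 0 passed the study's cut-off. Of the other SNARE proteins, 16 were tested and 0 had a p below 0.05 in either direction, with a median log2 fold change of 0.05. In this list 3 genes, Vti1a, Stx7 and Snap23, lay lower in every PND mouse than in any CON mouse, and Stx3 lay higher, each with a limma p above 0.05. Over all 4 lists 6 of 75 genes did not overlap between the groups (2 higher, 4 lower), the other two being Snapin (higher) and Snap91 (lower), beside 7.66% of all genes. The 5 genes other than Snap91 were named for this pattern after their values were seen, and Snap91 for its p. Snap47, a SNAP-25 relative whose exons overlap Jmjd4, measured 20.9 to 32.4 FPKM with a log2 fold change of 0.25 (SE 0.18). Vamp3, the synaptobrevin found in most cells, measured 5.65 to 7.44 FPKM with a log2 fold change of -0.13 (SE 0.14).

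Of 16 further synaptotagmins and calcium sensors 0 had a p below 0.05 (median log2 fold change 0.05). Syt7, a slow calcium sensor of asynchronous release and facilitation, measured 22.8, 6.52 and 23.8 FPKM in the PND mice and 15.6, 31.1 and 19.9 FPKM in the CON mice. PND replicate 2 was far below the others, and the log2 fold change was -0.48 (95% interval -1.66 to 0.70). Its exons overlap those of Gm26859. Of 23 priming, assembly and disassembly factors 0 had a p below 0.05 (median 0.04). Unc13a, encoding the priming factor Munc13-1, had a log2 fold change of -0.07 (SE 0.14) and Rims1, an active zone scaffold, one of 0.10 (SE 0.14). The exons of Unc13a overlap those of Colgalt1. Nsf, the ATPase that takes spent SNARE bundles apart, measured 66.5 to 75.2 FPKM over the 6 mice with a log2 fold change of 0.04 (SE 0.10), and its adaptor Napb 62.2 to 74.5 FPKM with one of -0.05 (SE 0.10).

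Among 20 vesicle and active zone proteins 1 gene, Snap91, was lower in the PND group at an unadjusted p below 0.05, and the list's median log2 fold change was -0.01. Snap91 encodes AP180, a clathrin assembly protein that sorts synaptobrevin into the vesicle membrane during endocytosis, and it is no SNARE despite its name (chr9:86765923-86880654, minus strand). It measured 18.8, 18.7 and 26.1 FPKM in the PND mice and 32.6, 33.4 and 33.9 FPKM in the CON mice. All PND mice lay below all CON mice, and the CON mice were nearly equal. The means were 21.2 ± 4.24 and 33.3 ± 0.664 FPKM, with a log2 fold change of -0.67 (SE 0.15, interval -1.01 to -0.32, limma p = 0.00244, exact permutation p = 0.1). After Benjamini-Hochberg adjustment over all genes p was 0.9999, and a share of 1.4% of all genes was lower at the same unadjusted threshold, so 1 such gene among 75 is near the background.

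**Figure D5:**
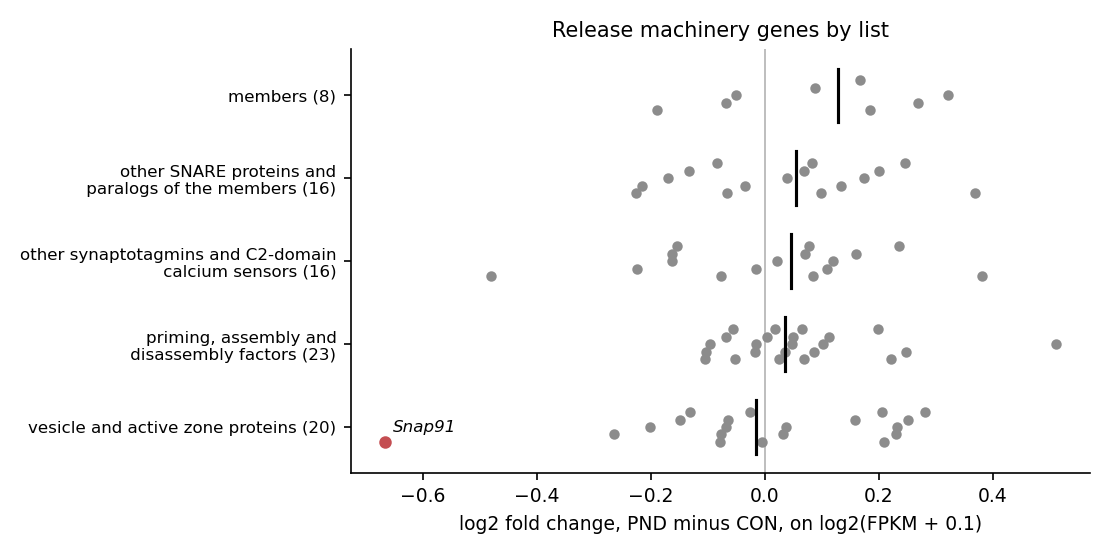
Log2 fold change (PND minus CON) of every tested gene in the 8 members and the 4 lists of the wider release machinery, 1 point per gene, with a bar at the median of each list. Snap91, at -0.67, is the only gene with an unadjusted limma p below 0.05.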

How the data were processed

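Total RNA of mouse prefrontal cortex was depleted of ribosomal RNA and sequenced by the authors, with 3 PND and 3 CON samples grouped by their treatment labels. The deposited values are FPKM per gene, which the authors computed from StringTie fragment counts after TMM scaling, 1 file per sample. The study's methods name HISAT2 for alignment, while the submitters' processing notes list Bowtie 0.12.2 with mm8 and mm9, so the build behind the values is unsure. FPKM are no counts. Of 21006 Ensembl genes 20866 matched a symbol in GENCODE M21 (GRCm38), from which positions and transcript GC content were taken. No 2 of the 15 sample pairs held identical values. Nothing states that values were made strand by strand.

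The 18185 genes averaging 0.1 FPKM or more were tested on log2(FPKM + 0.1) with limma 3.58.1 in R 4.3.3 (lmFit, eBayes with intensity trend, all 6 samples, no covariate, two-sided), with Benjamini-Hochberg adjustment over all genes tested. On this scale the change of low genes is understated. In all, 569 genes had an unadjusted p below 0.05, 241 passed the study's cut-off, and 2 had an adjusted p below 0.05. The fit was tested on simulated data. Paralog ratios and correlations were tested by exact permutation over samples (scipy 1.17.1), 720 arrangements for a correlation, and the test of single genes was added after seeing the data, as were correlations of GC-corrected values. GC content was corrected by a lowess curve of span 0.3 per library. Depth was estimated from the steps of FPKM times exon length: in each library 41.1% to 44.6% of values lay within 0.05 of a whole fragment, where values without steps would give 10%, so whole reads were not recovered and no count test was run.

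The members and gene lists were chosen with earlier results of these data known. Named were all members, 9 partner genes whatever their values (some are not reported here), every list gene with an unadjusted p below 0.05, and the 2 genes closest in pattern to each member. Of the 77 listed genes Vamp7 was not analysed here and Cplx4 was below the filter. Alternatives were another pseudocount, filter, scaling or trend setting, a GC correction, a replicate block and leaving out each sample. The samples are labelled as separate, but the labels do not number the animals, so p-values measure the spread between these samples.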

Additional observations from a re-analysis of the deposited data

How the results depend on the processing

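Under 16 alternatives 0 of the 8 members reached an unadjusted limma p below 0.05 (smallest 0.0509). For correlations 1 alternative, the GC correction, was run, and 0 of 44 passed after adjustment there. Snap91 kept its direction and an unadjusted p below 0.05 in 16 of 16 (0.000239 to 0.0124), with a lowest adjusted p of 0.321. The signs of 4 members turned. Leaving out 1 sample at a time gave log2 fold changes of -0.11 to 0.0463 for Snap25, -0.35 to 0.0596 for Stx1a, -0.25 to 0.62 for Syt2 and -0.0561 to 0.20 for Cplx2. The other members kept their sign but not their size, with 0.06 to 0.51 for Vamp1, 0.09 to 0.30 for Vamp2, -0.13 to -0.02 for Syt1 and 0.0011 to 0.34 for Cplx1. Snap25 was also 0.0308 with quantile normalization and 0.003 with the GC correction, with or without the replicate block. The count of genes past the cut-off was 25 with a pseudocount of 1 and 59 with a mean of at least 1 FPKM, which tests fewer genes, and 240 to 402 with 1 sample left out. Without CON replicate 2 it was 402, and the list genes with an unadjusted p below 0.05 rose from 1 to 5 of 75 (range 1 to 5), where 5.36% of all genes were below it, against 3.13% with all samples. These were Snap47 (0.41), Sv2b (0.38) and Syp (0.50), higher in PND, and Snap91 (-0.67) and Syt10 (-0.29), lower, where Syt10 was 0.12 with all samples. Sv2b, Syp and Syt10 were named after their values were seen. The cause was not tested.

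Same-numbered samples did not deviate together (correlations of -0.05, -0.27 and 0.01), so the numbers are no pairing. With the replicate block 226 genes passed the cut-off, 270 with the GC correction as well, and the counts of members (0) and list genes (1) were as without it.

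With 3 samples a group, effects on the members inside the printed intervals could not be detected. The least abundant members rested on 69.0 to 310 fragments per library, and intervals cover the spread between these samples only.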
